A study of Mus musculus with 2 samples.

Results

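The cells described here are Gpnmb-high macrophages of the fatty, inflamed mouse liver, a state usually called the lipid-associated macrophage. They were picked by unique molecular identifiers (UMIs, 1 per captured transcript): at least 2 UMIs of the complement genes C1qa, C1qb and C1qc together, at least 2 of Gpnmb, none of the Kupffer cell gene Clec4f and none of the lymphocyte genes Cd3e and Cd79a. That choice gave 476 of 12576 kept cells, of which 86 of 5978 came from the Trem2-/- library and 390 of 6598 from the Trem2+/+ library. Male C57Bl6/J recipients were lethally irradiated and received marrow of Trem2-/- donors or of their Trem2+/+ littermates. They recovered for 6 weeks and then ate a diet without methionine and choline for 4 weeks, as a model of steatohepatitis. Viable (7AAD-) liver cells with the leukocyte protein CD45 were sorted, equal shares from 4 mice were combined for each donor genotype, and each pool became 1 droplet library that captures the 5' end of each transcript. The labels name no sequence that would tell donor cells from recipient cells that outlived the irradiation, and the 4 mice of a pool cannot be told apart. With 1 library per genotype no difference has a replicate check, and every interval here covers counting error only.

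Lipid-associated macrophages gather around lipid-loaded and dying cells in adipose tissue, artery wall and steatotic liver, and are known for high lysosomal and lipid-handling transcripts. TREM2 is a surface receptor that binds lipids and lipoproteins and signals through the adaptor TYROBP and the kinase SYK. Gpnmb encodes a transmembrane glycoprotein of lysosomes and the cell surface that is induced in lipid-loaded macrophages.

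Promoter sequences are shown first for 3 genes whose transcripts mark these cells: Gpnmb, the gene of the rule; Ctsd, encoding the lysosomal protease cathepsin D; and Mmp12, encoding the macrophage elastase. The windows come from RefSeq on GRCm38.p6 and run from 250 bases before the transcription start to the first 20 bases of the transcript, 5′ to 3′ on the gene's strand. The Gpnmb window lies at chr6:49036268-49036537 on the plus strand, Ctsd at chr7:142387808-142388077 on the minus strand, and Mmp12 (the second of its 2 RefSeq starts) at chr9:7347124-7347393 on the plus strand. Capitals mark matches to 3 motifs searched on both strands: CACGTG, which is its own reverse complement and the core of the element bound by lysosomal-gene regulators of the MITF and TFE family; CATGTG or CACATG, a related element; and TGAGTCA or TGACTCA, the AP-1 element. No 2 of these motifs overlap in the windows shown.
Gpnmb: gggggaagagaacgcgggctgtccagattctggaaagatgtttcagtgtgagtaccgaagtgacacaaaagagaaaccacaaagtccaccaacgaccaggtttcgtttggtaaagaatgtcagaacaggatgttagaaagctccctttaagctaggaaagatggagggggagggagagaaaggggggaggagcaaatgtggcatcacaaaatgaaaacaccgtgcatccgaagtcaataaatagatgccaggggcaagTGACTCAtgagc
Ctsd: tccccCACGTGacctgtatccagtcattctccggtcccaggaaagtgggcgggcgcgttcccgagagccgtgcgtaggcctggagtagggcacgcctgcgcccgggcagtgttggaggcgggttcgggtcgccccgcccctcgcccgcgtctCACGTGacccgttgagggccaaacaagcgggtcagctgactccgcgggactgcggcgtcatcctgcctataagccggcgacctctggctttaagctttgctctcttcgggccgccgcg
Mmp12: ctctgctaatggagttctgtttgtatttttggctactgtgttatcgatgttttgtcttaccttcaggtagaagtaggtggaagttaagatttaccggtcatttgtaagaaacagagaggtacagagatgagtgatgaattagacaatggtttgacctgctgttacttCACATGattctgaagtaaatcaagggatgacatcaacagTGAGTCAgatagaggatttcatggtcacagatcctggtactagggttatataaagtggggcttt
The Gpnmb window held 1 AP-1 match starting at base 9 of the RefSeq transcript. Ctsd held 2 matches to CACGTG, starting 245 and 98 bases before the RefSeq start, and Mmp12 held CACATG and TGAGTCA, starting 83 and 44 bases before it. Starts differ between annotations. In GENCODE M21 Gpnmb starts at 49036546, after the end of its window, and Ctsd at 142388038, inside its window. Over windows of 300 bases (50 of them transcribed), CACGTG was present in 7.15% of 32851 RefSeq promoters, in 4 of the 31 promoters matched to the lipid-associated macrophage list described below (12.9%), and in 11 of the 36 matched to the lysosome and proton pump list (30.6%). CATGTG or CACATG was present in 14.2% of all promoters and in 2 (6.45%) and 8 (22.2%) of those of the lists. The AP-1 element was present in 5.20% of all promoters and in 6 (19.4%) and 1 (2.78%) of those of the lists. Of the 12 promoters matched to the genes ranked highest in Gpnmb-high over Gpnmb-low macrophages, 1 (8.33%) held each of the 3 motifs. The window at the first Mmp12 start held none. The 3 promoters were picked after matches had been seen, and a match is a description of letters, not of binding.

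In GENCODE M21 on mm10, the build of the files, Gpnmb spans chr6:49036546-49070929, Trem2 chr17:48346401-48354147, Cd36 chr5:17781690-17888801, Fabp5 chr3:10012548-10016607 and Spp1 chr5:104435118-104441050; counts are per gene, so they say nothing of exons. Trem2 itself was the first check of the labels. It stood at 60.0 CPM (UMIs scaled to a total of 1000000 over these cells) in the Trem2-/- library and at 836 CPM in the Trem2+/+ library. In the Trem2+/+ library 342 of 390 cells carried it, with 2910 UMIs. In the Trem2-/- library 51 UMIs were found in 26 of 86 cells, 18 of them in 1 cell and 7 in another, while 60 cells had none. With each cell thinned to 2000 UMIs, 6.25% of 80 Trem2-/- members and 67.7% of 350 Trem2+/+ members had a Trem2 UMI (30.2% and 87.7% unthinned), against 0.0705% and 0.321% of T and B cells. The labels do not say which part of the gene was deleted, so a residual 5' transcript and cells with an intact gene cannot be told apart.

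The label was then set against marker genes of this and other cell types, and lipid-associated and general macrophage markers were the abundant ones. The 10 lipid-associated markers summed to 11973 CPM in the Trem2-/- members and 17264 CPM in the Trem2+/+ members, against 4194 and 5552 CPM in macrophages chosen the same way but with 0 or 1 Gpnmb UMI (Gpnmb-low macrophages, 375 and 671 cells). The 10 general macrophage markers summed to 26457 and 24253 CPM. The lipid-associated markers include Gpnmb and C1qa, on which the cells were picked, and Trem2, which differs by donor genotype. The general markers include C1qa, C1qb and C1qc. These sums are therefore partly set by the rule and, for Trem2, by the genotype. The rule sets Cd3e and Cd79a, each on a list, to 0. The 10 T cell markers stood at 80.0 and 89.4 CPM, against 5910.1 and 4820.4 CPM in T cells of the same libraries, and the B cell markers at 38.8 and 35.9 CPM. Of the other T cell markers Cd3d, Cd3g and Trac were at 0 in the Trem2-/- members and none in the Trem2+/+ members. The Trem2-/- members held 849895 UMIs in all and the Trem2+/+ members 3480181, so a rare transcript is more easily missed in the former. Neutrophil markers summed to 468 and 379 CPM with Ly6g at 0 in both libraries, against 114305 and 103563 CPM in neutrophils. Kupffer cell markers reached 1044 and 815 CPM, against 10431 and 9076 CPM in the Clec4f-positive macrophages (341 and 378 cells). Clec4f was at 0 by the rule, and Marco and Xlr were also at 0 in the Trem2-/- members. Markers of Ly6C-high monocytes, the cells from which such macrophages can arise, summed to 849.5 and 852 CPM, against 1877 and 1699.7 CPM in the Gpnmb-low cells. Endothelial markers stood at 162 and 362 CPM in the Gpnmb-high cells. Most of the Trem2+/+ sum and a smaller part of the Trem2-/- sum came from Fabp4, which is also on the lipid-associated list. The order of these sums therefore rests on that gene. In the Gpnmb-low cells the endothelial markers stood at 2311 and 824 CPM, so several comparisons with Gpnmb-low cells are also given without endothelial-marked cells.

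The libraries held 25288032 and 27238586 UMIs in 6362 and 7012 barcodes, and kept cells had medians of 2932 and 2493 UMIs. Gpnmb-high macrophages were deep: their medians were 10007 UMIs and 2716 genes in the Trem2-/- library (509 to 24172 UMIs) and 8739 UMIs and 2570.5 genes in the Trem2+/+ library (501 to 52216 UMIs). Of the 56 barcode sequences found in both libraries, none belonged to a Gpnmb-high cell in both, and 4 belonged to Trem2+/+ members. No doublet caller was run, so a part of these cells may be doublets.

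Gpnmb-high macrophages were scarcer in recipients of Trem2-/- marrow. They made up 1.44% of kept cells there (exact binomial 95% interval 1.15% to 1.77%) and 5.91% in recipients of Trem2+/+ marrow (5.35% to 6.51%), a 4.11-fold lower share with a log2 ratio of -2.04 (95% interval -2.37 to -1.71). Gpnmb-low macrophages differed less, with 6.27% and 10.2% of kept cells and a log2 ratio of -0.70 (-0.87 to -0.52). The Clec4f-positive share differed by less than counting error, with 5.70% and 5.73% and a log2 ratio of -0.01 (-0.21 to 0.20). Among all C1q-positive, Clec4f-negative macrophages the Gpnmb-high share was 18.7% of 461 cells (15.2% to 22.5%) without donor Trem2 and 36.8% of 1061 cells (33.8% to 39.7%) with it, a log2 ratio of -0.98 (-1.28 to -0.68). Because a UMI threshold depends on depth, each cell was also thinned to 2000 UMIs, which left out shallower cells. The Gpnmb-high shares were then 14.8% of 317 and 29.8% of 715 C1q-positive macrophages, a log2 ratio of -1.01 (-1.42 to -0.59), and 1.14% of 4121 and 5.41% of 3936 kept cells, a log2 ratio of -2.25 (-2.70 to -1.80). Gpnmb chose the cells, and its level in them was 1580.2 and 2523 CPM, so a lower Gpnmb level per cell and fewer cells of this state cannot be told apart in these shares.

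The members held 1343 of 2055 Gpnmb UMIs of the Trem2-/- library (65.4%) and 8779 of 12490 of the Trem2+/+ library (70.3%). Gpnmb per member had a median of 6 UMIs and a maximum of 122 in the Trem2-/- library, and a median of 8 and a maximum of 842 in the Trem2+/+ library. Members with only 2 or 3 Gpnmb UMIs numbered 27 of 86 (31.4%) and 81 of 390 (20.8%), and members with 20 or more 19 (22.1%) and 101 (25.9%). As a guide to free RNA, 2 of 1816 T and B cells (0.110%) and 6 of 1477 (0.406%) reached 2 Gpnmb UMIs.

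**Figure D1:**
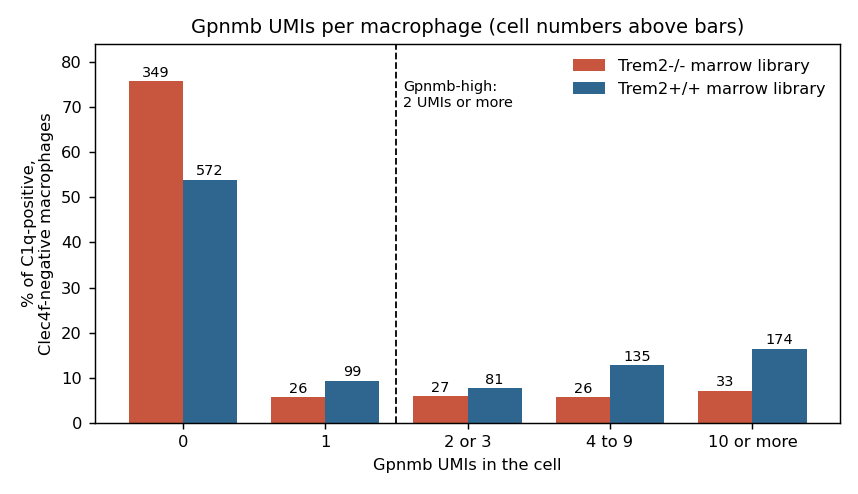
Share of C1q-positive, Clec4f-negative macrophages (vertical axis, %) by the number of Gpnmb UMIs in the cell (horizontal axis) in the Trem2-/- and Trem2+/+ marrow libraries; numbers above bars are cells, and the dashed line is the threshold of the rule. The Trem2-/- bar is the higher one only at 0 UMIs, with 349 of 461 cells, against 572 of 1061 in the Trem2+/+ library.

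Compared with Gpnmb-low macrophages of the same library, Gpnmb-high macrophages were higher in Mmp12, Fabp5, Ctsd and Cd63 and lower in Socs3, Ccr2 and Icam1. Of the lipid-associated list 12 of 24 genes were at least 2-fold higher in both libraries, with median log2 ratios of 1.07 and 1.3 in the Trem2-/- and Trem2+/+ libraries. Only 2 of 39 genes of the lysosome and proton pump list were that much higher, a list that leaves out Ctsd, Ctsb and Atp6v0d2. Of matrix protease and inhibitor genes 1 of 10 was that much higher, and of lipid uptake and droplet genes none of 7. None of 15 interferon response genes was at least 2-fold lower (medians -0.27 and -0.56). These ratios describe what goes with the Gpnmb UMIs that chose the cells and are not tested. Of 2670 genes measured, 35 were at least 2-fold higher in both libraries (1.31%) and 32 at least 2-fold lower (1.2%). The 12 genes ranked highest by the less extreme of the 2 libraries were Mmp12, Fabp5, Ctsd, Cd63, Pld3, Lgals3, Gstm1, Vat1, Mgst1, Lpl, Ctsb and Igf1.

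Mmp12 stood at 824 and 1263 CPM in the Gpnmb-high cells of the Trem2-/- and Trem2+/+ libraries, against 83.6 and 132 CPM in the Gpnmb-low cells. It was 9.85-fold and 9.56-fold higher, and in the Trem2-/- library 31.0% of its UMIs came from 1 cell. Fabp5, a fatty acid carrier, stood at 1297 and 2236 CPM against 229.7 and 238 CPM, which is 5.64-fold and 9.39-fold. Ctsd was 3.99-fold and 3.95-fold higher, at 2683 and 3393 CPM against 673 and 859 CPM. Cd63, a tetraspanin of late endosomes, was 4.84-fold and 3.77-fold higher, at 1220.2 and 1559 CPM against 252 and 413 CPM. The lysosomal phospholipase-like gene Pld3 was 4.10-fold and 2.99-fold higher, and the cathepsin gene Ctsb 2.65-fold and 2.51-fold. Lgals3, encoding a galectin that marks damaged lysosomes, stood at 2680.3 and 3828 CPM against 906 and 1309 CPM, 2.96-fold and 2.92-fold. The glutathione transferase genes Gstm1 and Mgst1 were between 2.75-fold and 3.64-fold higher over the 2 libraries. Igf1, a growth factor gene, was 3.59-fold and 2.42-fold higher than in Gpnmb-low cells, yet at 337 and 335 CPM it stood below the Clec4f-positive macrophages (477 and 525 CPM). Atp6v0d2, a subunit of the lysosomal proton pump, had too few UMIs in Gpnmb-low cells to be ranked (8 and 19), and stood at 70.6 and 154 CPM against 3.5 and 5.89 CPM.

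The 12 genes ranked lowest were Socs3, Plbd1, Ccr2, Icam1, Cxcl10, Ifi203, Cxcl9, Cfb, Cd81, Mndal, Ifitm3 and Fam49b. Ccr2, the receptor that brings monocytes out of the marrow, stood at 148 and 159 CPM in Gpnmb-high cells and at 314 and 314 CPM in Gpnmb-low cells, 2.12-fold and 1.97-fold lower. Socs3, a feedback inhibitor of cytokine signalling, was 2.64-fold and 2.12-fold lower. The interferon-induced chemokine gene Cxcl10 stood at 235 and 174 CPM against 436 and 297 CPM. Ifi203, Mndal and Ifitm3 are also interferon-induced, and they were between 1.47-fold and 1.79-fold lower over the 2 libraries. Cxcl9, another such chemokine gene, drew 59.7% and 40.1% of its UMIs in the Gpnmb-high cells from 1 cell of each library. Il1b, encoding interleukin-1 beta, was left out of the ranking as a candidate for free RNA of other cells. It stood at 1131 and 585 CPM against 2441 and 2085 CPM. With endothelial-marked cells left out of both gates (14 and 28 Gpnmb-high cells, 112 and 119 Gpnmb-low cells), the 12 highest and the 12 lowest genes kept their side in both libraries.

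**Figure D2:**
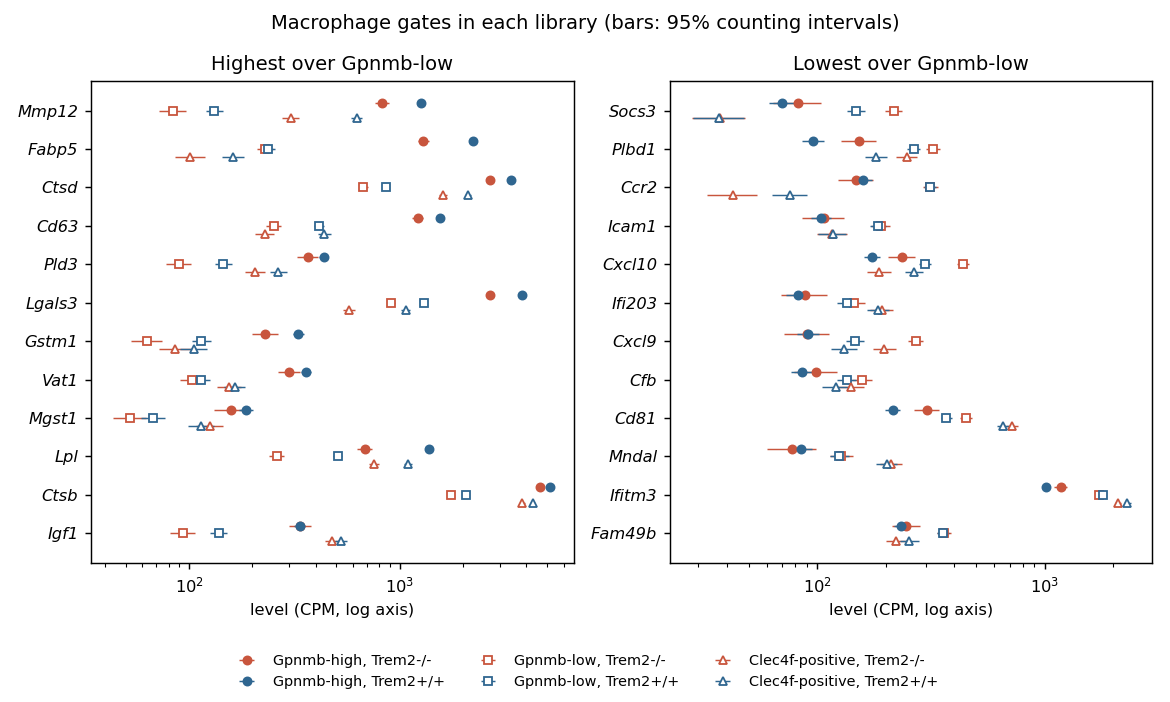
Level of the 12 genes highest (left) and the 12 lowest (right) in Gpnmb-high relative to Gpnmb-low macrophages, in CPM on a log axis, for Gpnmb-high (filled circles), Gpnmb-low (squares) and Clec4f-positive (triangles) macrophages of each library, with 95% Poisson counting intervals. Fabp5 stood at 1297 and 2236 CPM in the Gpnmb-high cells and at 238 CPM or less in the other 2 gates.

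The same genes were counted by the share of cells with a UMI, after thinning each cell to 2000 UMIs. Fabp5 was found in 63.8% and 73.1% of Gpnmb-high cells (80.2% and 83.6% unthinned), in 21.7% and 25.9% of Gpnmb-low cells, and in 4.65% and 5.88% of T and B cells, which should lack it or carry little. Cd63 was found in 75.0% and 80.6% of Gpnmb-high cells (95.3% and 91.0% unthinned) and in 1.13% and 3.64% of T and B cells. Spp1, encoding the matrix protein osteopontin, was carried by a minority, 17.5% and 28.9% of Gpnmb-high cells (27.9% and 42.6% unthinned), against 2.26% and 1.82% of T and B cells. Mmp12 was found in 25% and 38.3% (44.2% and 50.5% unthinned), against 0.705% and 1.60% of T and B cells, so that the protease gene was carried by a minority of these cells at that depth.

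Levels differed in size between genes from one side of the Gpnmb threshold to the other. Just outside the threshold, 26 Trem2-/- and 99 Trem2+/+ macrophages had 1 Gpnmb UMI, and just inside it 16 and 44 had 2. Fabp5 stood at 254 and 377 CPM outside and at 367 and 402 CPM inside. Cd63 stood at 304 and 589 CPM outside and at 724 and 962 CPM inside. In the 33 and 174 cells with 10 or more Gpnmb UMIs, Fabp5 reached 2055 and 3169.9 CPM, Mmp12 1357 and 1832 CPM, and Atp6v0d2 125 and 235 CPM. The MHC class II gene H2-Eb1 was lower at 10 or more Gpnmb UMIs than at 0 in both libraries. In the Trem2+/+ library it stood at 5708 CPM at 0, 4764 at 1, 3961 at 2 or 3, 3705 at 4 to 9 and 2534 CPM at 10 or more. In the Trem2-/- library the steps were uneven, at 5946, 4567, 6097, 5613 and 4133 CPM in the same order. Median depth was also higher along these steps, from 4888 and 3313.5 UMIs at 0 to 12410 and 10725 UMIs at 10 or more, and its part in these trends was not tested.

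**Figure D3:**
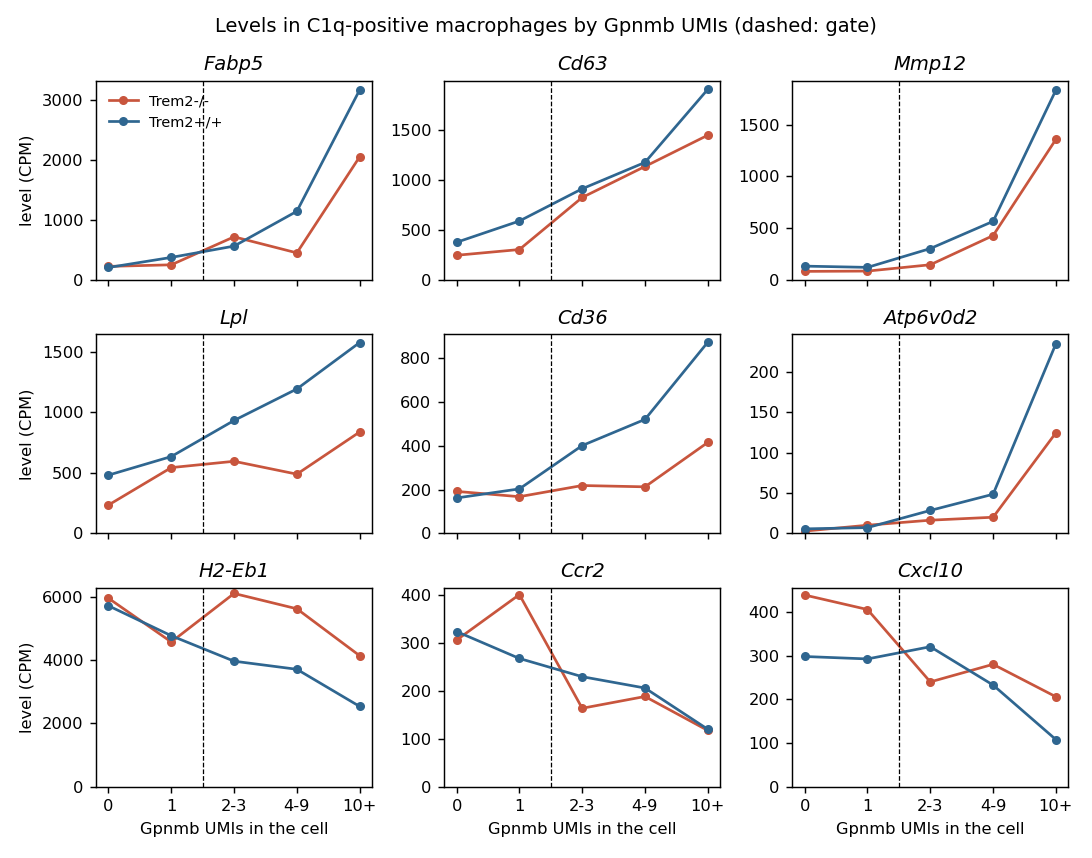
Levels of 9 genes (vertical axes, CPM from 0) in C1q-positive, Clec4f-negative macrophages grouped by Gpnmb UMIs per cell (horizontal axis) in the Trem2-/- and Trem2+/+ libraries; the dashed line is the threshold of the rule. Cd36 stood at 192 and 162 CPM at 0 Gpnmb UMIs, and at 415 and 872 CPM at 10 or more.

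Within Gpnmb-high macrophages, the Trem2-/- library was lower in Cd36, Lpl, Fabp5 and 7 other genes of the 25 measured of the lipid-associated list. It was higher in 4 of 7 MHC class II genes and in Il1b, Il1a and Il1rn. Of these Il1b and Il1rn, and Fabp4 among the 7 other genes, are candidates for free RNA of other cells. None of the 9 measured genes of the separate lipid uptake and droplet list was past 1.5-fold. Of 2763 genes measured (a mean of at least 50 CPM and 50 UMIs in all), 47 were at least 1.5-fold lower (1.7%) and 74 at least 1.5-fold higher (2.68%) in the Trem2-/- library, and the median log2 ratio over all of them was 0.0069. All 47 and all 74 had counting intervals that left out 0, but at this depth the limits on level and ratio already ensure that, so it adds no support. More than 50% of the UMIs of 1 library came from 1 cell for 1 of the 47 and 4 of the 74. A log2 ratio below is always Trem2-/- over Trem2+/+, with its 95% counting interval.

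The 12 lowest of the ranked genes were Cd36, Atp6v0d2, Lpl, Anxa1, Timp2, Lgals1, Alas1, Spp1, Fabp5, Ctsl, Anpep and S100a1. Cd36, a scavenger receptor and fatty acid transporter, stood at 313 CPM in the Trem2-/- library and 707 CPM in the Trem2+/+ library, and its log2 ratio was -1.17 (-1.36 to -0.99). It was carried by 62.8% and 69.2% of the cells. Lpl, the lipase that frees fatty acids from lipoproteins, stood at 682 and 1375 CPM, a log2 ratio of -1.01 (-1.14 to -0.89). Atp6v0d2 stood at 70.6 and 154 CPM, a log2 ratio of -1.13 (-1.54 to -0.74), and was carried by 23.3% and 34.4% of the cells. The third gene of fatty acid handling among them is Fabp5, which stood at 1297 and 2236 CPM (-0.79; -0.88 to -0.70). Spp1 stood at 455 and 787 CPM (-0.79; -0.95 to -0.63) and was carried by 27.9% and 42.6% of the cells. It was among the least stable of the 12: with the gate set on thinned cells (47 and 213 members) its log2 ratio was -0.12. The phospholipid-binding annexin gene Anxa1 stood at 192 and 384 CPM (-1.0; -1.25 to -0.77), and the galectin gene Lgals1 at 397 and 715 CPM (-0.85; -1.02 to -0.69). Alas1 encodes the first enzyme of heme synthesis and stood at 194 and 345 CPM (-0.83). The other 4 were Timp2, an inhibitor of matrix proteases, Ctsl, a cathepsin gene, Anpep, an aminopeptidase gene, and S100a1, with log2 ratios of -0.95, -0.77, -0.71 and -0.71.

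The 12 highest were Vcam1, Ccl24, Tmem176a, Ms4a7, Sdc4, Clec4n, Tmem176b, Bcl2a1d, H2-Eb1, Plbd1, Hif1a and Pilra. H2-Eb1, the beta chain of an MHC class II molecule, stood at 4991 CPM in the Trem2-/- library and 3062 CPM in the Trem2+/+ library, and its log2 ratio was 0.70 (0.65 to 0.76). Vcam1, an adhesion molecule that Clec4f-positive macrophages carried at 348 and 314 CPM, stood at 152 and 75.9 CPM (1.0; 0.69 to 1.31). Ms4a7, a membrane protein gene of macrophages, stood at 368 and 193 CPM (0.93; 0.73 to 1.12) and was carried by 59.3% and 47.9% of the cells. The paired membrane protein genes Tmem176a and Tmem176b, which neighbour each other, had log2 ratios of 0.95 and 0.74. Clec4n, a lectin receptor for fungal sugars, stood at 341 and 201 CPM (0.77; 0.56 to 0.97), and Hif1a, the oxygen-sensing transcription factor, at 124 and 77.9 CPM (0.67; 0.33 to 1.0). Bcl2a1d, a survival gene with near-identical copies between which reads may be split, stood at 165 and 99.99 CPM (0.72). Sdc4, Plbd1 and Pilra had log2 ratios of 0.86, 0.67 and 0.62, of which Plbd1 stood at 0.13 with the gate on thinned cells and Pilra at 0.18 in members with at least 10 Gpnmb UMIs. Ccl24, an eosinophil chemokine gene, stood at 160.02 and 80.7 CPM (0.99; 0.68 to 1.29), but 1 cell gave 55.1% of its Trem2-/- UMIs, and without the top cell of each library its log2 ratio was 0.46. Over the alternatives it ran from 0.021 without members with a cell cycle UMI to 2.44 with the gate on thinned cells.

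Of the 30 genes listed for the lipid-associated state, 29 were in the files given and 25 were measured in these cells, and none of the 25 was at least 1.5-fold higher in the Trem2-/- library while 10 were at least 1.5-fold lower. Their median log2 ratio was -0.41, against 0.0069 over all genes, and the list holds several of the genes ranked above. The 10 were Fabp4, Cd36, Atp6v0d2, Lpl, Lgals1, Spp1, Fabp5, Ctsl, Anxa2 and Mmp12. Fabp4, another fatty acid carrier, was the lowest, at 64.7 and 299.7 CPM (-2.21; -2.63 to -1.82). It passes the limits of the ranking but was left out as a candidate for free RNA of other cells. The part of free RNA in its value was not tested. Fabp4 is also on the endothelial marker list, and in members with under 2 UMIs of the other endothelial markers its log2 ratio was -2.26. Mmp12 stood at 824 and 1263 CPM (-0.62; -0.73 to -0.50), and without the top cell of each library at -1.0. Lgals3 (-0.51), Plin2 of the lipid droplet coat (-0.41), Cd63 (-0.35) and Ctsd (-0.34) were lower by less. Other genes of the list lay near 0 or above it: Apoe stood at 19573 and 18861 CPM (0.05), Igf1 at 337 and 335 CPM (0.01), the tetraspanin gene Cd9 at 604 and 669 CPM (-0.15; -0.29 to -0.01), and the stress cytokine gene Gdf15 at 951 and 784 CPM (0.28; 0.16 to 0.39). Among the Gpnmb-high members, the ratios of Igf1 and Gdf15 differed in sign between the bins of fewer and more Gpnmb UMIs described below.

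Genes of the lysosome and proton pump list were close between the genotypes. None of its 39 measured genes was past 1.5-fold either way, but few of all 2763 measured genes were (1.7% lower and 2.68% higher). The list median log2 ratio was 0.01. Lamp1, a lysosomal membrane protein gene, stood at 1445 and 1434 CPM (0.01; -0.08 to 0.10), and Psap, the precursor of the saposins that help break down sphingolipids, at 7047 and 7357 CPM (-0.06). The lowest and highest of the list were Atp6v0a1 (-0.47) and Ctsc (0.39). Some lysosomal genes were placed on the lipid-associated list instead and are not counted here. Of those Atp6v0d2 (-1.13) and Ctsl (-0.77) were past 1.5-fold lower, while Ctsd, Ctsb, Ctsk, Hexa and Lipa were not among the genes lower by that much. Relative to Gpnmb-low macrophages the same list was higher in Gpnmb-high cells, with median log2 ratios of 0.53 in the Trem2-/- library and 0.41 in the Trem2+/+ library.

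MHC class II genes were higher in the Trem2-/- library. All 7 measured of the 11 listed were above 0, 4 of them past 1.5-fold, with a median log2 ratio of 0.59. Cd74, the invariant chain that guides class II molecules, stood at 17221 and 11419 CPM (0.59; 0.57 to 0.62), H2-Aa at 6138 and 4079 CPM (0.59), and H2-Ab1 at 4065 and 2677 CPM (0.60). Ciita, the factor that switches class II genes on, stood at 57.7 and 45.1 CPM, with an interval that held 0 (-0.14 to 0.83). In Gpnmb-low macrophages, with endothelial-marked cells counted, the same 7 genes had a median log2 ratio of 0.07. Dendritic cells are also rich in class II. In the members the type 2 dendritic cell markers summed to 954 and 960.3 CPM, and the type 1 markers to 2071 and 2590.4 CPM. The mature dendritic cell markers summed to 1286 and 1666 CPM, most of it from Cd63, which is also on the lipid-associated list. Of the mature dendritic cell markers Fscn1, Cacnb3 and Nudt17 were at 0 in the Trem2-/- members and none in the Trem2+/+ members. Fewer UMIs were summed over the Trem2-/- members (849895 against 3480181), so a rare transcript is more easily missed there.

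Cytokine and chemokine genes were also higher, 7 of 20 past 1.5-fold and none lower by that much, with a median log2 ratio of 0.41. Il1b stood at 1131 and 585 CPM (0.95; 0.84 to 1.06), Il1a at 93.0 and 38.2 CPM (1.28; 0.86 to 1.69), and Il1rn, encoding their antagonist, at 364 and 152 CPM (1.26; 1.05 to 1.46). Nlrp3, the inflammasome sensor gene, stood at 131 and 54.0 CPM (1.27; 0.92 to 1.62) and was carried by 41.9% and 24.9% of the cells. Il1b, Il1rn and, of the dissociation genes below, Egr1 pass the limits of the ranking but were left out of it as candidates for free RNA. Their level was under 0.2 of that in another cell gate of the same library. The part of free RNA in their values was not tested. Tnf (0.08) and Ccl3 (-0.03) had intervals that held 0. Ccl2 (1.05) drew 35.5% of its Trem2-/- UMIs from 1 cell, and Cxcl3 (2.39) drew 95.8%; without the top cell of each library Cxcl3 was at -1.04. Among genes induced by tissue dissociation 5 of 22 were past 1.5-fold higher, among them Egr1 at 609 and 338 CPM (0.85) and Hspa1a at 115 and 45.4 CPM (1.34), with a list median of 0.18, and their part in the cytokine values was not tested. The Kupffer cell markers given above were also higher in the Trem2-/- members, and their part in the values of Vcam1, Ccl24 and Vsig4 was not tested.

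Of 17 measured annexin, galectin and S100 genes, 5 were past 1.5-fold lower and none higher, with a median log2 ratio of -0.23. They were Anxa1, Anxa2 (200.03 and 321 CPM; -0.68), Lgals1, S100a6 (399 and 684 CPM; -0.78) and S100a1. S100a6 passes the limits of the ranking but was left out of it as a candidate for free RNA of other cells. The part of free RNA in its value was not tested. Among matrix proteases and inhibitors 4 of 13 were lower: Mmp12, Timp2, Fn1 (182 and 276 CPM; -0.60) and Adam8 (29.4 and 88.5 CPM; -1.59). The list median was nevertheless -0.09, and Mmp14 (0.09) and Adam17 (0.22), the protease that can shed TREM2 from the cell, had intervals that held 0. In the iron, heme and antioxidant list only Alas1 of 25 was past 1.5-fold, against 1.7% lower and 2.68% higher over all genes. The ferritin gene Fth1 stood at 18374 and 22968 CPM (-0.32). TREM2's adaptor gene Tyrobp stood at 2986 and 3422 CPM (-0.20; -0.26 to -0.13) and Syk at 189 and 202 CPM (-0.09; -0.35 to 0.15), and of 18 measured genes of that list only Ms4a7 was past 1.5-fold, upward.

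In the remaining lists at most 2 genes each were past 1.5-fold, against 1.7% lower and 2.68% higher over all genes. None of the 15 interferon response genes (0.21), 9 lipid uptake and droplet genes (-0.02), 6 cholesterol efflux genes (0.05) or 4 sterol synthesis genes (-0.24) was past 1.5-fold. Of 25 macrophage transcription factors only Hif1a was, with a list median of 0.16; the lysosomal regulator Mitf had a log2 ratio of -0.18. Of 11 glycolysis genes only Hk2 was (0.65), of 4 cell cycle genes only Pcna (-0.60), and of 8 growth factor genes only Spp1 (list medians -0.10, -0.07 and -0.07). The complement list had a median of 0.13, and its gene Vsig4, a complement receptor, stood at 120.02 and 55.7 CPM (1.11), with 48.0% of its Trem2-/- UMIs from 1 cell and a log2 ratio of 0.45 without the top cell of each library. In the dying-cell uptake list only Mfge8 was past 1.5-fold (-4.26), and 1 cell gave 66.0% of its Trem2+/+ UMIs. Receptors for dying cells lay near the other genes, with 0.18 for Mertk and 0.13 for Axl.

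**Figure D4:**
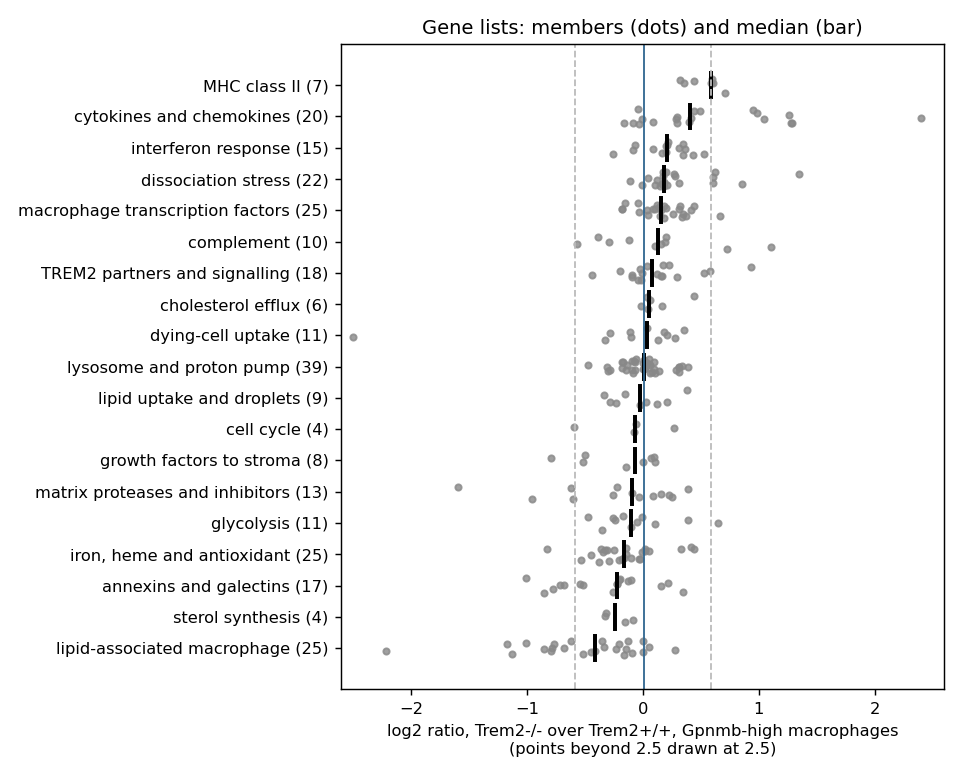
Log2 ratio (Trem2-/- over Trem2+/+) in Gpnmb-high macrophages for each measured gene (dots) of 19 lists, with the list median (black bar), the median over all genes (blue line) and 1.5-fold either way (dashed lines); the number of measured genes is in parentheses. MHC class II and cytokine genes lie furthest right by their medians (0.59 and 0.41) and lipid-associated genes furthest left (-0.41).

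The members were also described in 2 bins of their Gpnmb UMIs after thinning to 2000 UMIs. Of the Trem2-/- members deep enough, 35 had 0 or 1 Gpnmb UMI and 45 had 2 or more, and of the Trem2+/+ members 120 and 230. The bins did not even out Gpnmb, the gene of the rule: it stood at 2341 and 3521 CPM in the upper bin (-0.59; -0.68 to -0.50) and at 471 and 589 CPM in the lower one (-0.32; -0.58 to -0.07). Among those with 2 or more, Cd36 stood at 370.03 and 851 CPM (-1.20; -1.43 to -0.98), Lpl at 783 and 1479 CPM (-0.92; -1.07 to -0.77) and Fabp5 at 1777 and 3028 CPM (-0.77; -0.87 to -0.67). H2-Eb1 stood at 3993 and 2574 CPM (0.63) and Il1b at 1025 and 544 CPM (0.91). Among cells with 0 or 1, Cd36 (-0.89; -1.24 to -0.55) and Lpl (-1.12; -1.35 to -0.90) were also lower, whereas Mmp12 (-0.06; -0.30 to 0.17), Ctsl (-0.03; -0.43 to 0.36) and Anxa1 (-0.04; -0.54 to 0.44) had intervals that held 0. For 2 genes of the lipid-associated list the direction turned between the bins. Gdf15 stood at 1227 and 605 CPM in the lower bin (1.02; 0.84 to 1.20) and at 746 and 887 CPM in the upper one (-0.25; -0.41 to -0.09). Igf1 stood at 175 and 299 CPM in the lower bin (-0.77; -1.19 to -0.38) and at 447 and 355 CPM in the upper one (0.33; 0.11 to 0.55). The lipid-associated list had medians of -0.16 and -0.42 in the lower and upper bins, and MHC class II 0.54 and 0.51.

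In the Gpnmb-low macrophages of the same libraries 29 of 2926 measured genes were at least 1.5-fold lower (0.991%) and 132 at least 1.5-fold higher (4.51%). Of the 47 genes lower in Gpnmb-high cells, 36 were measured in Gpnmb-low cells and 3 were also lower there; of the 74 higher, 69 were measured and 5 were also higher. These counts include Gpnmb-low cells with endothelial markers. Lpl was lower in both, with 261 and 507 CPM in Gpnmb-low cells and log2 ratios of -1.01 and -0.96. Fabp5 stood at 229.7 and 238 CPM there (-0.05; -0.21 to 0.11), and its log2 ratio was lower in Gpnmb-high cells by a difference of -0.73 (-0.92 to -0.55, counting error only). Cd36 stood at 189 and 169 CPM in Gpnmb-low cells (0.17; -0.02 to 0.35), but without endothelial-marked cells at 87.2 and 152 CPM (-0.80; -1.09 to -0.52), so that it was then lower in both gates. H2-Eb1 stood at 5827 and 5545 CPM (0.07), and its log2 ratio was higher in Gpnmb-high cells by 0.63 (0.57 to 0.69). Without endothelial-marked cells its log2 ratio was 0.17 (0.14 to 0.21) in Gpnmb-low and 0.74 (0.68 to 0.79) in Gpnmb-high cells, a smaller difference. Of 6 ranked genes whose ratios lay on opposite sides of 0 in the 2 gates with neither interval holding 0, Ctsl, S100a1 and Vcam1 had Gpnmb-low ratios of -0.02, -0.03 and 0.03 without endothelial-marked cells, and Spp1, Ms4a7 and Clec4n of 0.56, -0.44 and -0.30. With 1 library per genotype, no difference between the gates has a replicate test.

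**Figure D5:**
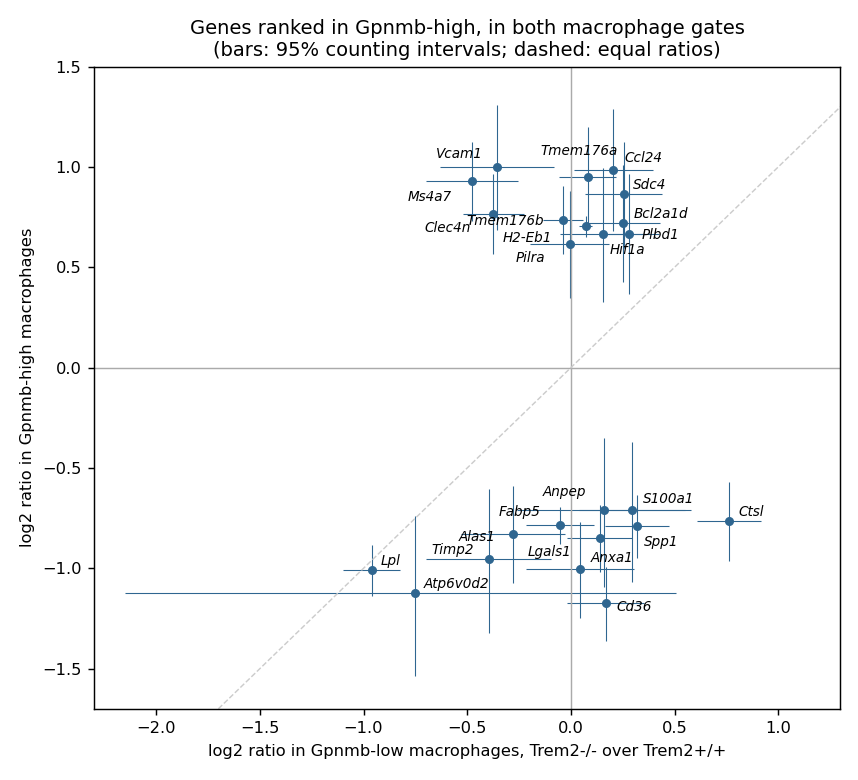
Log2 ratio (Trem2-/- over Trem2+/+) of the 24 genes ranked by genotype in Gpnmb-high macrophages (vertical axis) against the same ratio in Gpnmb-low macrophages (horizontal axis), with 95% counting intervals and a dashed line of equal ratios. Lpl lies near that line (-1.01 and -0.96), whereas Ctsl, Spp1, S100a1, Vcam1, Ms4a7 and Clec4n lie on opposite sides of 0.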

How the data were processed

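Droplet 5' single-cell RNA libraries of sorted CD45+ liver cells were measured, 1 pool of 4 mice per donor genotype. The deposited files hold raw UMI counts for 32285 genes. Per the file headers the authors made them in Cell Ranger 5.0.1, on mm10 per the submitters' processing notes; for the annotation release, the sources used here name none. The total per library was 25288032 and 27238586 UMIs.

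Barcodes under 200 genes or above 10% mitochondrial UMIs were dropped, and the gates were set on UMIs. UMIs were summed over the cells of a gate and library and divided by their total (CPM). Intervals at 95% are exact Poisson for CPM, exact conditional binomial for ratios, exact binomial (Clopper-Pearson) for shares and large-sample for ratios of shares; they cover counting error only. Genes needed a mean of 50 CPM and 50 UMIs; 1.5-fold between genotypes and 2-fold between gates count as past the limit. Named genes are the 12 highest and 12 lowest of each ranking with a mean of at least 100 CPM, and genes of 19 lists and 17 marker lists; the genes of the rule, Trem2 and genes that may come from free RNA of other cells were left out of rankings. Where cells were matched on depth, each was thinned to 2000 UMIs with a fixed seed. The ratio step was checked on simulated counts. Members and lists were chosen with earlier results of these data known; 5 alternatives, the split by thinned Gpnmb, the genes shown along Gpnmb steps and the printed promoters were chosen after values were seen. Python 3.11.15, NumPy 2.4.6, SciPy 1.17.1, pandas 2.3.3 and matplotlib 3.10.9 were used.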

Additional observations from a re-analysis of the deposited data

Results flagged for a closer look

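Of the 24 genes ranked by genotype in Gpnmb-high macrophages, 6 had a log2 ratio (Trem2-/- over Trem2+/+) on the other side of 0 in Gpnmb-low macrophages, with neither counting interval holding 0. This choice was made after the values were seen, and the difference between the gates was not tested, since each genotype has 1 library. Spp1, encoding osteopontin, stood at -0.79 in Gpnmb-high and 0.32 in Gpnmb-low cells. Ctsl, a lysosomal cathepsin gene, stood at -0.77 and 0.76, and S100a1 at -0.71 and 0.30. The other 3 ran the opposite way: Vcam1 stood at 1.0 and -0.35, Ms4a7 at 0.93 and -0.48, and Clec4n at 0.77 and -0.37.

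Endothelial markers summed to 2311 CPM in the Trem2-/- and 824 CPM in the Trem2+/+ Gpnmb-low cells. Without cells that carried at least 2 UMIs of these markers (Fabp4 not counted), Spp1, Ms4a7 and Clec4n remained on opposite sides, at -0.65 and 0.56, 0.93 and -0.44, and 0.85 and -0.30 in Gpnmb-high and Gpnmb-low cells. The Gpnmb-low ratios of Ctsl (-0.28 to 0.23), S100a1 (-0.39 to 0.32) and Vcam1 (-0.31 to 0.37) then had intervals that held 0. Anpep, an aminopeptidase gene among the 24, came to lie on opposite sides in that setting, at -0.63 in Gpnmb-high and 0.53 (0.07 to 0.99) in Gpnmb-low cells.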

How the results depend on the processing

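No paired analysis was possible because each genotype has 1 library, and for the same reason no replicate could be left out. Over 6 settings of the gate and cell filters both shares kept their direction, with log2 ratios of -2.26 to -1.96 among kept cells and -1.20 to -0.76 among C1q-positive macrophages. None of the 24 genotype-ranked genes changed sign over 15 settings, and 48 of 360 values moved by more than their counting interval. The settings of the CPM minimum leave the ratio of each gene as it is, and centring subtracts only 0.0069. Those settings could therefore not change a sign and are no check of these genes. Counts of genes past the limits were less stable than single genes. Genes lower in Trem2-/- members numbered 47 as reported, 87 without cells carrying markers of another lineage, 94 with the gate on thinned cells, 99 with at least 10 Gpnmb UMIs, 77 as a mean over cells, 211 from 20 CPM, 23 from 100 CPM and 1341 with no CPM minimum. Genes higher there numbered 74 as reported, 129 with the gate on thinned cells, 129 with at least 10 Gpnmb UMIs, 237 from 20 CPM, 28 from 100 CPM and 1006 with no CPM minimum. Genes higher in Gpnmb-high than in Gpnmb-low cells numbered 35 as reported, 23 without other lineages, 67 with at least 10 Gpnmb UMIs, 58 from 20 CPM and 97 with no CPM minimum. Genes lower numbered 32 as reported, 20 with at least 5 C1q UMIs, 18 without other lineages, 54 with at least 10 Gpnmb UMIs, 100 from 20 CPM, 11 from 100 CPM and 709 with no CPM minimum. The CPM minimum changes how many genes are counted; for the other settings the cause was not tested. List medians that moved were the lipid-associated list (-0.21 without other lineages, -0.65 without members with a cell cycle UMI), MHC class II (0.39 with the gate on thinned cells, 0.64 with at least 10 Gpnmb UMIs, 0.52 without the deepest 5% of members, 0.40 with no CPM minimum), cytokines (0.59 with the gate on thinned cells), growth factors (-0.34 with at least 10 Gpnmb UMIs) and cell cycle (-0.33 from 20 CPM, -0.34 with no CPM minimum). The complement median changed sign without other lineages (-0.016), without the deepest members (-0.0030) and from 100 CPM (-0.12), and glycolysis without other lineages (0.026). Medians within 0.1 of 0 were not counted as changed when they crossed 0. The settings without other lineages and with the gate on thinned cells left 51 and 47 Trem2-/- members, and genes near 50 UMIs in all are the least precise.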
